A study of Mus musculus with 6 samples.

Results

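The guanylate-binding proteins (Gbp) were described in the cortex of mice 10 days after microglia depletion. The members were the genes whose symbols are Gbp2, Gbp3, Gbp4, Gbp5, Gbp6, Gbp7, Gbp8 and Gbp9, chosen by name, and all 8 were found among the 23366 genes measured. Brain cortex RNA (frontal cortical tissue in the study's methods) was sequenced from 3 d10 depleted mice, here called A4 to A6, and from 3 littermate control mice, here called A1 to A3; each mouse gave 1 library. All mice were CX3CR1-CreERT2+/- on a C57BL/6 background; those to be depleted were iDTR+/- as well, whereas their control littermates had no iDTR allele. The iDTR allele is a diphtheria toxin receptor that is expressed once Cre has removed a stop cassette. Mice of both groups received tamoxifen, which activates the Cre, and depletion was then induced with diphtheria toxin. Cre was driven by the CX3CR1 promoter, which is active in microglia and also in other CX3CR1+ myeloid cells. The mice were age- and sex-matched adults, and their age was not stated. Whether the control mice also received the toxin was not stated, so an effect of the toxin itself and an effect of the depletion cannot be told apart here.

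Gbp genes encode large GTPases that are among the most strongly interferon-induced proteins of mouse cells. Their transcription is driven by factors that include IRF9 and STAT2 after type I interferon and IRF1 after interferon-gamma, through promoter elements called ISRE and GAS. The proteins assemble on the vacuoles of intracellular parasites and on bacteria, where they act together with the immunity-related GTPases (IRG) and with the Atg8 conjugation machinery of autophagy. They also promote the activation of inflammasome caspases. In the brain they are induced in microglia, astrocytes and endothelial cells by infection and interferon.

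In the mouse genome (GENCODE M21, GRCm38) the members lie in 2 clusters. Gbp5, Gbp7, Gbp3 and Gbp2 lie in this order on the plus strand of chromosome 3, with Gbp2b between Gbp3 and Gbp2. Gbp8, Gbp9, Gbp4 and Gbp6 lie on the minus strand of chromosome 5, with Gbp10 between Gbp4 and Gbp6 and Gbp11 after Gbp6. The gene models of Gbp8, Gbp9 and Gbp4 overlap on the same strand, and Mir6381 lies antisense within Gbp2. Some annotated transcript sequence is shared between genes, so that reads of 75 bases from it could be assigned to either. Gbp6 shared most, with 67.3% of its 75-base windows found in another gene, 40.4% in Gbp10 and 61.7% in Gm43302, which has no row in the table. The share was 11.3% for Gbp7, 8.0% for Gbp8 and from 0.6% (Gbp5) to 3.6% (Gbp9) for the other members. The value of Gbp6 is therefore uncertain as a measure of that gene alone.

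The promoters of the members on chromosome 3 are shown because they hold letters of the ISRE and GAS kinds of element. The windows come from RefSeq (GRCm38.p6) and run from 250 bases before to 50 bases after the annotated start. Capitals mark matches, on either strand, to the ISRE core GAAANNGAAA and to the GAS letters TTCNNNGAA. Gbp2 (chr3:142620413-142620712, plus strand), Gbp3 (chr3:142559794-142560093, plus strand), Gbp5 (chr3:142496684-142496983, plus strand) and Gbp7 (chr3:142530086-142530385, plus strand) read as follows.
Gbp2: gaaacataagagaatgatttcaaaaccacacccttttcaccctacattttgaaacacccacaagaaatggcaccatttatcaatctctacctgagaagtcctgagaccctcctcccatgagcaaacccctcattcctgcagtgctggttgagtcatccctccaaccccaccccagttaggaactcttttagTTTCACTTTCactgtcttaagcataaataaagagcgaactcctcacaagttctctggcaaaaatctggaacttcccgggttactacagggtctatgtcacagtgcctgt
Gbp3: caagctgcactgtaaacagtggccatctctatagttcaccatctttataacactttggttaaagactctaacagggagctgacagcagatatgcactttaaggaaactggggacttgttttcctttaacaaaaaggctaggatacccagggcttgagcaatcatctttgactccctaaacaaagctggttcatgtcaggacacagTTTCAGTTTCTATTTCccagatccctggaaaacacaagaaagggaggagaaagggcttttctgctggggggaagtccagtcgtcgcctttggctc
Gbp5: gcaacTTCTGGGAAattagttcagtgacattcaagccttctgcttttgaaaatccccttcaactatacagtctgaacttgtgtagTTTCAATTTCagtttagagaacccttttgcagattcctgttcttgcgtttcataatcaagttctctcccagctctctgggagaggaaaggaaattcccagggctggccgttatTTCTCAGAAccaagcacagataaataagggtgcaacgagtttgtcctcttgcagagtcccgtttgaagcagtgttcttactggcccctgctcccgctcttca
Gbp7: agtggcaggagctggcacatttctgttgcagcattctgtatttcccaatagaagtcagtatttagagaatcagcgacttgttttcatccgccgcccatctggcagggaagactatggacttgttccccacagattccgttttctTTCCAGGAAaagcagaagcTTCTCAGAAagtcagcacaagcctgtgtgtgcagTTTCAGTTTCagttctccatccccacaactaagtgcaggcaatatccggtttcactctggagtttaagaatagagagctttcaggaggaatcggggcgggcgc

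Each of these 4 windows held an ISRE core, always on the strand opposite to the gene. Counted from the start site, the first base of the match was 59 bases upstream in Gbp2, 53 bases upstream in Gbp7 and 165 bases upstream in Gbp5. Gbp3 held 2 matches that overlap each other, at 45 and 39 bases upstream. A second RefSeq window of Gbp3 (chr3:142560106-142560405) held no match to either motif. GAS letters were found in Gbp5, at 245 and 52 bases upstream, and in Gbp7, at 106 and 87 bases upstream, and no GAS match lay in the windows of Gbp2 and Gbp3. Of all 32851 RefSeq promoter windows of this length, 3.44% held the ISRE core and 8.3% held the GAS letters; over the 27025 genes the shares were 3.99% and 9.55%. Gbp4, Gbp6, Gbp8 and Gbp9 had no entry in the promoter table. A match describes letters and was not measured as a binding site.

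**Figure D1:**
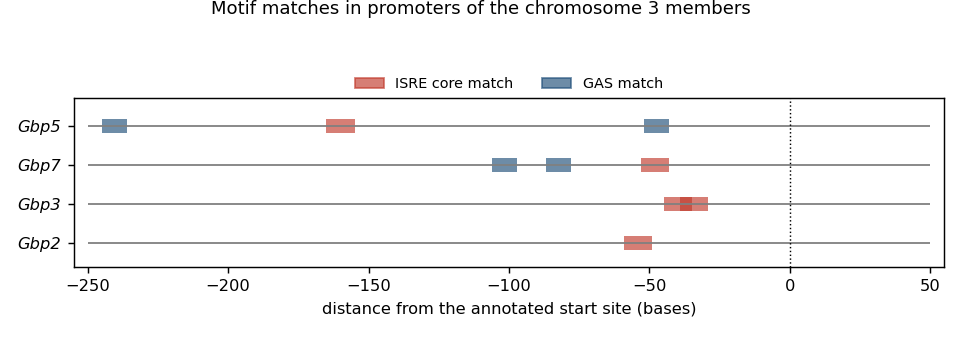
Positions of ISRE core matches (red) and GAS matches (blue) in 1 promoter window of each of the 4 chromosome 3 members; the x axis is the distance from the annotated start site in bases, and the dotted line is the start. All 4 windows hold an ISRE core upstream of the start, and Gbp5 and Gbp7 also hold 2 GAS matches each.

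The libraries were not alike. The depth behind the values was estimated from the spacing of low FPKM values as 14.7, 20.4 and 18.3 M fragments in mice A1 to A3 and 13.6, 3.6 and 11.2 M in mice A4 to A6. Each estimate is the depth, among those tried, that scored best for low values being whole numbers of fragments. The values did not all come out whole in any library. Multiples of a depth keep whole values whole, so A5 in particular may have been deeper than estimated. By these estimates, a single fragment on the 2516-base Gbp2 transcript was worth from 0.0195 FPKM in A2 to 0.11 FPKM in A5. Values of Gbp4 and Gbp8 near this size would rest on very few fragments. A4 had the highest level of 7 of the 8 members, and in a weighted fit it received the lowest weight of the 6 mice (0.304). A4 was also the library in which 4 Y-linked genes summed to 5.56 FPKM together with an Xist level of 30.9 FPKM, against Y-linked sums of at most 0.16 FPKM in the other 5 libraries. Xist was 4.74 FPKM in A3 and from 30.9 to 46.7 FPKM in the other 5 libraries. The part of depth and of sex-linked signal in the Gbp values was not tested, and fold changes and list medians are also given without A4.

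In the control cortex the Gbp genes were expressed at low levels, from 0.1 to 2.13 FPKM (fragments per kilobase of transcript and per M fragments, a level per transcript length). By mean control level the order was Gbp3, Gbp2, Gbp6, Gbp7, Gbp9, Gbp5, Gbp4 and Gbp8. The ranges over the 3 control mice overlapped between all neighbours in this order except between Gbp5 and Gbp4 and between Gbp4 and Gbp8. Gbp3 made up 26.1%, Gbp2 22.7% and Gbp6 14.5% of the summed control FPKM of the 8 members. In the depleted mice the order by mean was Gbp3, Gbp2, Gbp6, Gbp7, Gbp5, Gbp9, Gbp4 and Gbp8, and the ranges of all neighbours overlapped. This order rested on A4 in part: by the mean of A5 and A6 alone, Gbp6 (2.88 FPKM) stood before Gbp2 (2.84 FPKM) and Gbp5 (1.25 FPKM) before Gbp7 (0.89 FPKM). The summed FPKM of the 8 members was 7.12, 5.23 and 6.62 in mice A1 to A3 and 52.6, 12 and 13.3 in mice A4 to A6. Every depleted mouse lay above every control mouse in this sum, and A4 was the highest mouse.

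Gbp6 had the largest log2 fold change of the members. It was 1.09, 0.83 and 0.83 FPKM in mice A1 to A3 and 11.49, 2.46 and 3.30 FPKM in mice A4 to A6. All 3 depleted mice were above all 3 control mice, at 12.5, 2.68 and 3.60 times the control mean of 0.917 ± 0.150 FPKM (SD, n = 3). The log2 fold change of FPKM + 1 was 1.58 (SE 0.415, adjusted p = 0.370 by limma), and without A4 it was 1.01 (adjusted p = 0.124). Because Gbp6 and Gbp10 share transcript sequence, their FPKM were also added: the sums were 1.23, 0.88 and 0.89 in the control mice and 12.48, 2.46 and 3.48 in mice A4 to A6. The pair gave nearly the same log2 difference (1.57) as Gbp6 alone. Gbp6 belongs to the chromosome 5 cluster, where its protein has been placed on parasite vacuoles.

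Gbp3 and Gbp2, the members with the highest control levels, differed by similar amounts. Gbp2 encodes a membrane-targeted GTPase that is recruited to parasite vacuoles and bacteria. Gbp3 was 1.92, 0.90 and 2.13 FPKM in mice A1 to A3 and 13.39, 3.81 and 3.13 FPKM in mice A4 to A6. Gbp2 was 1.51, 1.09 and 1.70 FPKM in the control mice and 11.70, 3.18 and 2.49 FPKM in mice A4 to A6. In both genes the groups did not overlap, and the lowest depleted mouse was A6. For Gbp3 the log2 fold change was 1.35 (SE 0.436, adjusted p = 0.389 by limma), and 0.78 without A4 (adjusted p = 0.271). For Gbp2 it was 1.24 (SE 0.425, adjusted p = 0.397 by limma), and 0.66 without A4 (adjusted p = 0.234).

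Gbp5, whose protein promotes inflammasome assembly, was 0.67, 0.50 and 0.56 FPKM in mice A1 to A3 and 5.91, 0.83 and 1.67 FPKM in mice A4 to A6. The groups did not overlap, but the gap between A5 and the highest control mouse, A1, was small. The log2 fold change was 1.04 (SE 0.417, adjusted p = 0.451 by limma), and 0.49 without A4 (adjusted p = 0.363). Gbp7, whose protein has been tied to NADPH oxidase assembly on phagosomes, was 0.95, 0.78 and 0.46 FPKM in the control mice and 7.02, 0.91 and 0.87 FPKM in mice A4 to A6. Only A4 was above the controls in Gbp7, since A5 and A6 lay between A2 and A1. The log2 fold change of Gbp7 was 0.83 (SE 0.505, adjusted p = 0.590 by limma), and it was 0.14 without A4 (adjusted p = 0.783).

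Gbp9, a chromosome 5 member, was 0.61, 0.76 and 0.60 FPKM in mice A1 to A3 and 2.03, 0.46 and 1.07 FPKM in mice A4 to A6. A5 was the lowest of the 6 mice, and A4 and A6 were above the controls. The log2 fold change was 0.34 (SE 0.255, adjusted p = 0.660 by limma), and 0.071 without A4 (adjusted p = 0.909). Gbp4 had a mean below the filter of 0.5 FPKM and was not tested across genes. It was 0.23, 0.26 and 0.24 FPKM in the control mice and 0.93, 0.12 and 0.71 FPKM in mice A4 to A6, with A5 again the lowest. Gbp8, the least expressed member, also lay below the filter, at 0.14, 0.11 and 0.10 FPKM in the control mice and 0.15, 0.23 and 0.10 FPKM in mice A4 to A6. The groups of Gbp8 overlapped, and all its values were close to what few fragments give.

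**Figure D2:**
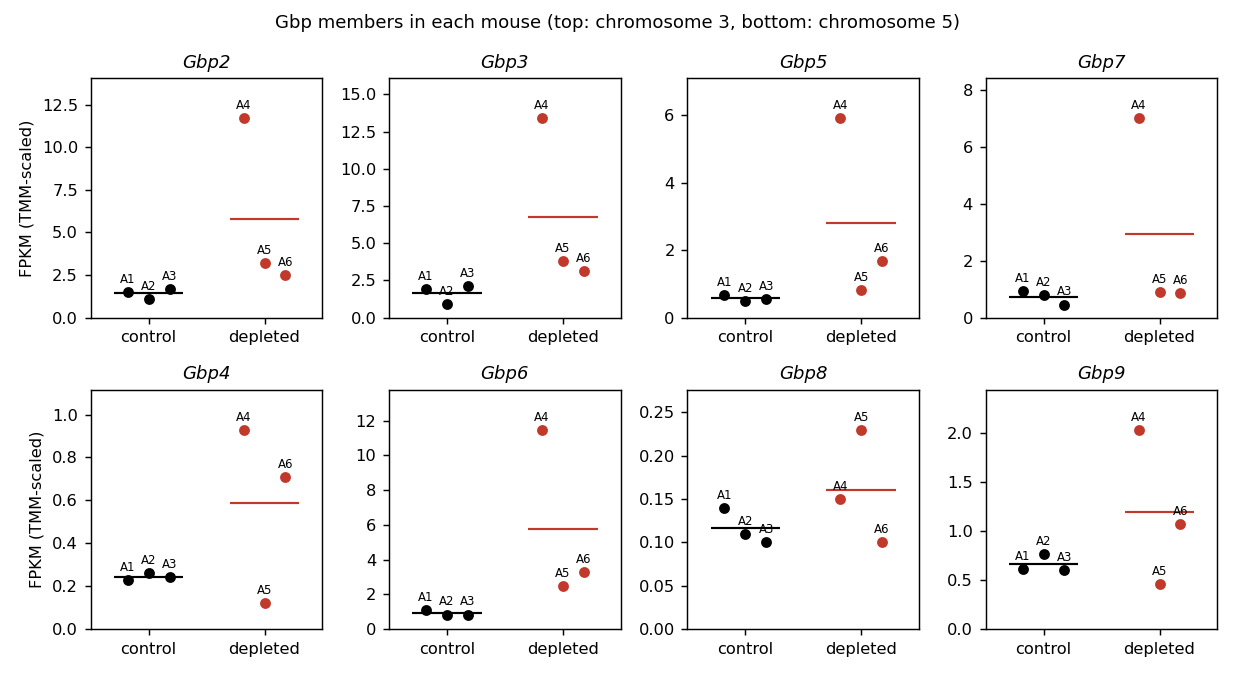
FPKM (TMM-scaled, y axis, a separate scale per gene) of each of the 8 members in the 3 control mice (black) and the 3 depleted mice (red); each point is 1 mouse and each line a group mean. A4 is the highest mouse in 7 of the 8 genes, and A5 and A6 lie above all control mice in Gbp2, Gbp3, Gbp5 and Gbp6.

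The 8 members were not tested alike: 6 of 8 passed the filter on low values, and Gbp4 and Gbp8 did not. All 6 also had a control mean of at least 0.5 FPKM. At an adjusted p under 0.1, 0 of these 6 members were called by limma, where 4 of 14385 genes were called (0.0278%). At an unadjusted limma p under 0.05, 4 of the 6 (Gbp2, Gbp3, Gbp5 and Gbp6) were higher in depleted mice, against 4.79% of all genes tested. The same 4 genes had all 3 depleted mice above all 3 control mice, against 8.21% of all genes. With 3 mice a group, a two-sided exact permutation test cannot give a p below 0.1; these 4 genes reached that p of 0.1, while Gbp7 gave 0.3, Gbp4 and Gbp9 0.4 and Gbp8 0.5. The median log2 fold change of the 6 members was 1.14, beside -0.0085 over all genes tested.

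A4 carried much of the size of these differences. Its level made up 79.8% of the summed depleted FPKM of Gbp7, 70.3% of that of Gbp5 and from 65.9% to 67.4% of those of Gbp2, Gbp3 and Gbp6. The median difference of the 6 members from the control mean, on the log2(FPKM + 1) scale, was 2.31 in A4, against 0.50 in A5 and 0.60 in A6, while the median of all genes lay within 0.01 of 0 in each of the 3 mice. At a log2 difference of at least 1 in A4, 5 of the 6 members were counted (Gbp9 was not), against 1.82% of all genes. Without A4 the median over the members was 0.57, and Gbp2, Gbp3, Gbp5 and Gbp6 were at an unadjusted limma p under 0.05, against 5.99% of all genes. Without A2, the control mouse with the lowest Gbp2 and Gbp3, this count was 1 of 6 (Gbp6), against 2.61% of all genes. Without A5, the library of least estimated depth, it was 5 of 6, with Gbp9 (log2 fold change 0.60, adjusted p = 0.268 by limma) joining the other 4, against 6.91% of all genes.

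**Figure D3:**
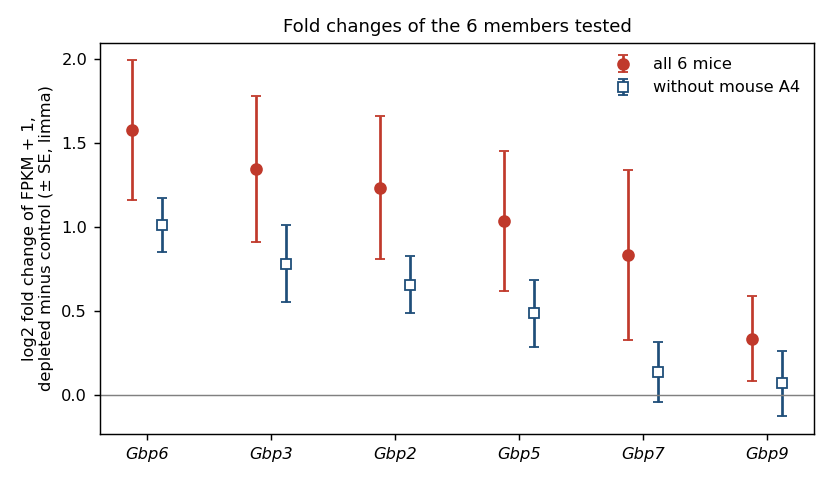
Log2 fold change of FPKM + 1 (y axis, depleted minus control, bars are the limma SE) of the 6 members that passed the filter, with all 6 mice (red) and without A4 (blue squares). All 12 values are above 0; Gbp6 has the largest value in both fits, and Gbp7 and Gbp9 lie within 1 SE of 0 without A4.

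Each of the 2 clusters held members whose groups did not overlap and members whose groups did. The 4 members on chromosome 3 summed to 5.05, 3.27 and 4.85 FPKM in mice A1 to A3 and 38.0, 8.73 and 8.16 FPKM in mice A4 to A6. The 4 members on chromosome 5 summed to 2.07, 1.96 and 1.77 FPKM in the control mice and 14.6, 3.27 and 5.18 FPKM in mice A4 to A6. Both sums had every depleted mouse above every control mouse, and Gbp6 made up from 42.4% to 52.7% of the chromosome 5 sum in the control mice and from 63.7% to 78.7% in the depleted mice. Within each cluster, members with low and high log2 differences stood side by side: Gbp7 beside Gbp3, and Gbp9 and Gbp4 in the cluster of Gbp6. Between pairs of the 6 members, Pearson's r over the 6 mice ran from 0.769 to 0.991 (15 pairs); without A4 it ran from -0.126 to 0.973. These correlations rest on mice of 2 groups that share their libraries and are given as a description. The other Gbp genes of the table all lay below the filter. The gene listed as Gbp1 (Gbp2b in current names) was at 0.41 FPKM in A4 and listed at 0 in the other 5 mice. Gbp10 was 0.14, 0.05 and 0.06 FPKM in the control mice and 0.99, 0 and 0.18 FPKM in mice A4 to A6. Gbp11 was 0.20, 0.29 and 0.30 FPKM in the control mice and 0.43, 0.52 and 0 FPKM in mice A4 to A6.

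Genes that act upstream of Gbp transcription were compared in the order of the pathway. Of 10 interferon ligands in the table, 9 were listed at 0 in all 6 mice, among them Ifng, which encodes interferon-gamma. Ifnb1, which encodes interferon-beta, was 0.28 FPKM in A4 and listed at 0 in the other 5 mice. All 7 receptor and Janus kinase genes were tested, and 0 of 7 passed an adjusted limma p under 0.1. Ifngr1, a chain of the interferon-gamma receptor, was 7.50, 7.28 and 8.12 FPKM in mice A1 to A3 and 9.68, 9.31 and 10.67 FPKM in mice A4 to A6. Its groups did not overlap, and it was the only gene of this list at an unadjusted limma p under 0.05 (log2 fold change 0.33, SE 0.0996, adjusted p = 0.378 by limma), with 0.35 without A4. Jak2 had a log2 fold change of 0.088 (-0.023 without A4), and Ifngr2, the other chain of the receptor, had -0.036 (-0.0092 without A4). The median of the list was 0.057, and -0.021 without A4.

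Of 8 regulators of Gbp transcription, 6 were tested and 0 passed an adjusted limma p under 0.1, while 3 were higher at an unadjusted p under 0.05, Stat2 and Irf9 among them. Irf9, a DNA-binding partner of STAT2, was 5.56, 4.56 and 4.90 FPKM in the control mice and 24.95, 7.17 and 7.88 FPKM in mice A4 to A6. All depleted mice were above the controls, with a log2 fold change of 1.04 (adjusted p = 0.419 by limma), and 0.51 without A4. Irf1, a factor that interferon-gamma induces, was 2.02, 2.56 and 3.56 FPKM in the control mice and 4.95, 1.45 and 1.47 FPKM in mice A4 to A6. A4 was above the controls in Irf1 and both other depleted mice were below them, and the log2 fold change was -0.15 (SE 0.338, adjusted p = 0.902 by limma) and -0.57 without A4. The median of the 6 regulators was 0.53, and 0.31 without A4.

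Interferon-induced genes outside the Gbp family were set beside the members as 2 lists, those led by type I interferon and those led by interferon-gamma. In the type I list 16 of 16 genes were tested, 0 passed an adjusted limma p under 0.1, 12 were higher at an unadjusted p under 0.05, and the median log2 fold change was 1.73, or 1.00 without A4. Of the 16, 7 (Mx1, Mx2, Rsad2, Oas1a, Oas2, Oasl1 and Ifi44) had control means under 0.5 FPKM and passed the filter only through their depleted level, so that this count and median hold genes that had to differ. Among the other 9, 8 were higher at an unadjusted p under 0.05, beside 4.79% of all genes tested. Ifit3 (2.30) and Ifit1 (2.13), which encode RNA-binding antiviral proteins, had the largest values of this list, and Ifit2 (0.69) the smallest; without A4 these were 1.53, 1.24 and 0.11. Ifit3 was 11.44, 6.55 and 7.30 FPKM in mice A1 to A3 and 132.26, 27.80 and 23.44 FPKM in mice A4 to A6. Its order of A4, A5 and A6 was that of Gbp2, Gbp3 and Gbp7, whereas Gbp4, Gbp5, Gbp6 and Gbp9 had A6 above A5. In the interferon-gamma list 8 of 12 genes were tested, 0 passed an adjusted limma p under 0.1, 1 was higher at an unadjusted p under 0.05 and the median log2 fold change was 0.021, or 0.068 without A4. The gene was Cd274, which encodes the checkpoint ligand PD-L1, with a log2 fold change of 0.92 (adjusted p = 0.432 by limma), and 0.46 without A4. Cd74, the invariant chain of MHC class II, had 0.17 (0.30 without A4), and H2-Aa, an MHC class II chain, had -0.15 (-0.18 without A4). Most of the 8 genes tested (Cd74, H2-Aa, H2-Ab1, H2-Eb1, H2-DMa and H2-DMb1, beside Ido1 and Cd274) belong to the MHC class II pathway. The median of 0.021 therefore mainly describes that pathway. The groups did not overlap in 14 of the 16 type I genes and in 1 of the 8 interferon-gamma genes tested. The 14 hold Mx1, Mx2, Rsad2, Oas1a, Oas2 and Ifi44, which passed the filter only through their depleted level, so this count cannot be read against all genes. Among the other 9 type I genes the groups overlapped only in Ifit2. Of all genes tested, 8.21% had every depleted mouse above every control mouse. Over all 12 interferon-gamma genes in the table the groups did not overlap in 3, Cd274 and, under the filter, Cxcl9 and Serpina3g. Cxcl9, a chemokine, was 0.05, 0 and 0 FPKM in the control mice and 0.55, 0.29 and 0.21 FPKM in mice A4 to A6.

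Partners of the Gbp proteins were compared in the same way, and 0 of their genes passed an adjusted limma p under 0.1. Of 12 immunity-related GTPase genes in the table, 9 were tested and all 9 had a higher mean in the depleted group, 6 of them at an unadjusted p under 0.05 (Irgm1, Igtp, Iigp1, Gm4951, Tgtp1 and Tgtp2, of which Tgtp1 and Tgtp2 are a near-identical pair whose reads could be split). Of the 9, Gm4951, Tgtp1 and F830016B08Rik had control means under 0.5 FPKM and passed the filter only through their depleted level. Among the other 6, 4 were higher at an unadjusted p under 0.05, beside 4.79% of all genes tested. The median log2 fold change of the 9 was 0.85, and 0.48 without A4. For the 6 genes with higher control means it was 1.00, and 0.52 without A4. Iigp1, which encodes a GTPase of parasite vacuoles, was 0.67, 0.31 and 0.54 FPKM in the control mice and 10.33, 1.43 and 1.36 FPKM in mice A4 to A6. Its log2 fold change was 1.42 (adjusted p = 0.432 by limma), and 0.68 without A4. Igtp had 1.34 (0.80 without A4), and Irgq, with 0.029 (-0.054 without A4), had the smallest value. In the Atg8 conjugation list 10 of 10 genes were tested, with Atg3 (0.22, or 0.28 without A4) higher and Atg7 (-0.26, or -0.30 without A4) lower at an unadjusted limma p under 0.05, and the median was 0.088, or 0.075 without A4. Atg12, which encodes a ubiquitin-like protein of the pathway, had 0.18 (0.14 without A4). Of 10 inflammasome genes, 6 were tested, and Casp1, the protease that matures interleukin-1, had the largest log2 fold change (0.43, adjusted p = 0.396 by limma) and was the only one at an unadjusted p under 0.05; without A4 its value was 0.38. Naip5, which passed the filter only through its depleted level, had 0.38 (0.24 without A4), and Il18, a substrate of that protease, had -0.12 (-0.14 without A4). The median of this list was 0.19, and -0.0051 without A4, so its sign rested on that mouse.

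**Figure D4:**
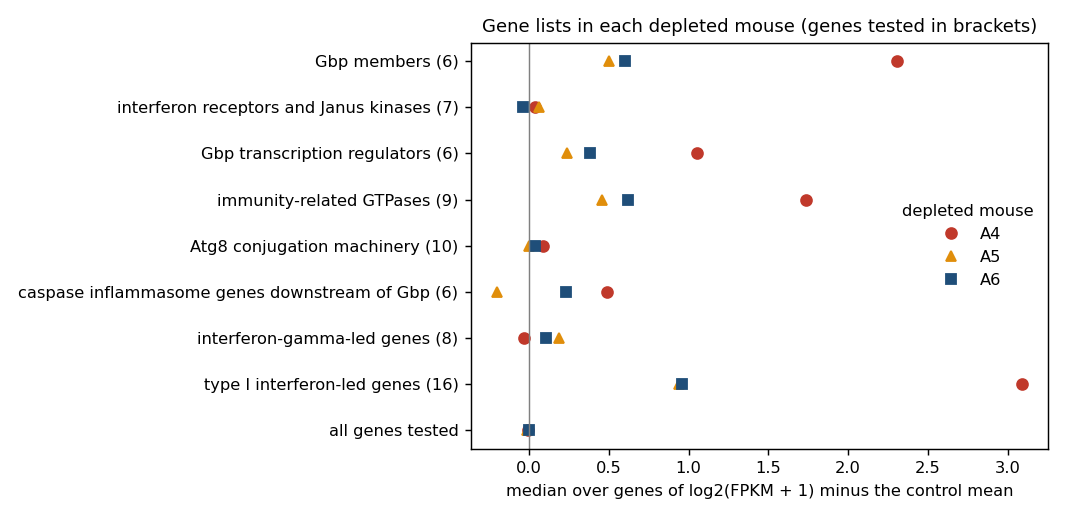
Median over the genes of each list of log2(FPKM + 1) minus the control mean (x axis) in A4 (circles), A5 (triangles) and A6 (squares), with the number of genes tested in brackets. The Gbp members lie at 2.31, 0.50 and 0.60, and the immunity-related GTPases at 1.74, 0.45 and 0.62. Of the 9 GTPase genes 3, and of the 16 type I genes 7, passed the filter only through their depleted level. The places of these lists therefore cannot be compared with that of the members. The interferon-gamma-led genes, mostly of the MHC class II pathway, and the receptors lie within 0.19 of 0 in each mouse.

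The promoter letters of these lists were read in the same RefSeq windows. Of the genes with an entry, the ISRE core was found in 6 of 9 immunity-related GTPases, 6 of 11 type I genes, 2 of 5 regulators, 0 of 7 interferon-gamma-led genes, 0 of 7 receptors and Janus kinases, 0 of 7 Atg8 genes and 0 of 9 inflammasome genes, beside 3.99% of all genes. Igtp, Irgm1, Irgm2, Tgtp1 and Tgtp2 were among the GTPase genes with a match. The GAS letters were found in 4 of the 9 immunity-related GTPases, 3 of the 11 type I genes, 1 of the 7 interferon-gamma-led genes, 3 of the 5 regulators, 2 of the 7 receptors and Janus kinases, 2 of the 7 Atg8 genes and 0 of the 9 inflammasome genes, beside 9.55% of all genes.

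The genes whose levels followed the members most closely were ranked by Pearson's r over the 6 mice with the mean of the 6 members on the log2 scale, each centred on its own mean, among 14379 other genes. The highest were Irf9 (r = 0.9996), Iigp1 (0.997), Oasl2 (0.997), 1810026J23Rik (0.997), I830012O16Rik (0.996) and Usp18 (0.996). Without A4 the same 6 genes had r from 0.965 (Usp18) to 0.996 (Irf9). Oasl2, an oligoadenylate synthetase-like protein, was 2.13, 1.24 and 1.54 FPKM in the control mice and 31.35, 4.18 and 4.60 FPKM in mice A4 to A6. Usp18, a protease that removes ISG15 from proteins, was 0.69, 0.66 and 0.55 FPKM in the control mice and 22.21, 1.58 and 2.20 FPKM in mice A4 to A6. 1810026J23Rik, listed as Timm29 in RefSeq, spanned a narrower range, from 22.36 to 23.84 FPKM in the control mice and 24.83 to 37.22 FPKM in the depleted mice. All 6 genes had A4 as their highest mouse, and the correlations share the same 6 libraries.

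In cortex, fewer cells of a type and less RNA per cell cannot be told apart, so summed marker levels were set beside the Gbp values. Homeostatic microglia markers (10 genes) summed to 90.9 to 110.1 FPKM in control mice and 97.3 to 116.5 FPKM in depleted mice. Within this list Fcrls and P2ry12 were lower at an unadjusted limma p under 0.05. Pan-myeloid markers (8 genes) summed to 77.8 to 93.0 FPKM in control mice and to 150.7, 94.3 and 117.0 FPKM in mice A4 to A6. Aif1, Laptm5, Tyrobp and Fcer1g were higher at an unadjusted limma p under 0.05, beside 4.79% of all genes tested. Itgam (-0.069) and Csf1r (-0.081) had log2 fold changes below 0, and the groups of Cd68 and Ptprc overlapped. All 3 depleted mice were above the controls in the pan-myeloid sum, though A5 (94.3 FPKM) lay only just above A1 (93.0 FPKM). The order was A4, A6 and A5, as for Gbp4, Gbp5, Gbp6 and Gbp9, whereas Gbp2, Gbp3, Gbp7 and Gbp8 had A5 above A6. Monocyte markers (7 genes in the table) summed to 8.14 to 8.97 FPKM in control mice and to 18.3, 8.47 and 9.45 FPKM in mice A4 to A6, so that A4 stood apart here too. S100a4 was the largest part of the sum in A4, at 10.25 FPKM against 2.73 to 3.39 FPKM in control mice. F13a1 (-0.25) and Vcan (-0.13) had log2 fold changes below 0. Of the defining monocyte genes, Ly6c2 was 0.18, 0.46 and 0.15 FPKM in the control mice and 1.73, 0.39 and 0.88 FPKM in mice A4 to A6, and Ccr2 was at most 0.24 FPKM in any mouse. T and NK cell markers (13 genes in the table) summed to 2.98 to 3.74 FPKM in control mice and 2.16 to 3.92 FPKM in depleted mice, mostly from Cd4, with Gzmb and Ncr1 at 0 in all 6 mice. In A4 Cd3d was 1.08 FPKM and Cd3g 0.42 FPKM, while Cd3e and Cd2 were at 0 and Cd8a was 0.02 FPKM.

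Endothelial markers (10 genes) summed to 78.1 to 86.2 FPKM in control mice and 87.6 to 93.8 FPKM in depleted mice, and the groups did not overlap. Ly6c1 and Slc2a1 were the largest parts of this sum, and the groups of each overlapped. Only Cldn5 (log2 fold change 0.31) had groups apart and an unadjusted limma p under 0.05. Cdh5 (-0.088) and Kdr (-0.083) had log2 fold changes below 0. Astrocyte markers (8 genes) summed to 1083 to 1209 FPKM in control mice and 1081 to 1210 FPKM in depleted mice, a sum of which Aldoc was the largest part and which does not show the members' own differences. Gfap, the intermediate filament of reactive astrocytes, was 88.3, 64.5 and 84.2 FPKM in the control mice and 300.3, 108.5 and 120.1 FPKM in mice A4 to A6. Its groups did not overlap, A4 was the highest mouse as in most Gbp genes, and the log2 fold change was 1.00 (SE 0.340, adjusted p = 0.396 by limma), or 0.54 without A4. Aldoc, a glycolytic enzyme, was 573.2, 515.0 and 535.9 FPKM in the control mice and 465.5, 467.1 and 488.8 FPKM in mice A4 to A6. Neuron markers (10 genes), the check on the labelled tissue, summed to 3022 to 3420 FPKM in control mice and 2913 to 3202 FPKM in depleted mice. Oligodendrocyte markers (8 genes) were lower in sum, at 2986 to 3253 FPKM against 2613 to 2703 FPKM, with 4 of 8 lower at an unadjusted limma p under 0.05, and choroid plexus markers (8 genes) lay at 169.7 to 326.4 FPKM against 47.0 to 72.3 FPKM. Ttr was most of that last sum, at 172.74, 313.68 and 160.05 FPKM in the control mice and 64.30, 40.92 and 59.89 FPKM in mice A4 to A6. Of the other choroid plexus genes, Prlr and Cldn2 were lower with groups apart, and the groups of Folr1, Kl, Clic6, Kcnj13 and Otx2 overlapped. Meningeal markers (8 genes) summed to 43.4 to 49.7 FPKM in control mice and 36.8 to 45.6 FPKM in depleted mice. The part of the myeloid, monocyte, endothelial, astrocyte, oligodendrocyte and choroid plexus values in the Gbp differences was not tested.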

How the data were processed

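The authors prepared poly(A) RNA libraries (TruSeq) and sequenced paired-end reads of 75 bp. TopHat served for alignment and RSEM for quantification of known transcripts. The deposited table, used whole, holds FPKM values per gene symbol and mouse, scaled by TMM and rounded to 2 decimals. The submitters' processing notes name genome build mm9 and the tools DESeq, RSEM and TopHat; versions and annotation are not given in the sources used here. RefSeq windows and gene order come from GRCm38, so no position of the table was converted. Raw counts were not used here. Groups were taken from the labels, which give no litter, batch or date.

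Of 23366 genes, the 14385 whose mean over all mice reached 0.5 FPKM entered a test with limma 3.58.1 in R 4.3.3 on log2(FPKM + 1), with eBayes with a trend, Benjamini-Hochberg adjustment over all genes tested and a threshold of 0.1. A fold change on this scale understates the change of low genes. Single genes were also compared by an exact permutation test. Each library came from 1 mouse, so p-values measure the spread between mice. The fit was tested on simulated data. Depth was estimated from the spacing of low FPKM values of 1813 genes with 1 annotated transcript; it is a rough estimate. Other steps ran in Python 3.11.15 (pandas 2.3.3, numpy 2.4.6, scipy 1.17.1, matplotlib 3.10.9).

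The members, gene lists and tests were chosen with earlier results of these data known. Genes named were the 8 members, the other Gbp genes, Irf1 and Ifng, in each other list the 2 genes with the largest and the 1 with the smallest log2 fold change, and the 6 genes most correlated with the members; of marker lists, summed levels and genes at 0 were given. Gm4951, Irgm1, Irgm2, Tgtp1, Tgtp2, Stat2, Ifnb1, Fcrls, P2ry12, Aif1, Laptm5, Tyrobp, Fcer1g, Ly6c2, Ccr2, Cd3d, Cd4, Gfap, Aldoc, Cxcl9, Serpina3g, F830016B08Rik, the type I genes under 0.5 FPKM in controls, Xist and the Y-linked genes were named after their values were seen. So were all other marker genes named here, such as S100a4, F13a1, Vcan, Ttr and the other choroid plexus genes, except Gzmb and Ncr1. Some genes of these lists are not reported here.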

Additional observations from a re-analysis of the deposited data

How the results depend on the processing

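Over 15 alternatives (another pseudocount, no or a stricter filter, other scalings, other variance models, and leaving out each mouse in turn), all 89 log2 fold changes of the tested members were above 0 and none reached an adjusted p under 0.1 with limma; the lowest was 0.124 (Gbp6 without A4). The log2 fold changes ran from 0.66 to 1.62 for Gbp2, 0.78 to 1.75 for Gbp3, 0.49 to 1.67 for Gbp5, 1.01 to 2.20 for Gbp6, 0.14 to 1.25 for Gbp7 and 0.071 to 0.60 for Gbp9. The members with groups that do not overlap numbered 4 to 5, with 5 only when A1 or A5 was left out. With 1 mouse fewer, groups come apart more readily, and the share over all genes is not given for these fits. The count of all genes called, 4, was 2 with eBayes without trend and 20 with array weights, and ran from 2 to 29 when single mice were left out; the members at an unadjusted p under 0.05, 4, ran from 1 (without A2) to 5 (without A5). The cause was not tested. Of 105 medians of the other lists, 3 moved beyond the spread. No paired analysis was possible because the mice are numbered 1 to 6 and the groups share no replicate number. Gbp4 and Gbp8 lay under the filter, and by the estimated depth their values rest on few fragments in A5.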
